A study of Arabidopsis thaliana with 28 samples.

Results

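A set of 169 Arabidopsis thaliana genes, of 36632 in the count table, had more transcript in every seedling library that carries hda9-1 than in every genotype library that does not. The members were chosen on these very values. A gene was taken where each of the 6 libraries of hda9-1 h2a.z-5 and hda9-1 had a higher CPM than each of the other 12 genotype libraries. The mean of the 6 also had to reach 1 CPM and 1.3 times the mean of the 12. CPM here is the read count of a gene divided by the total of its library and scaled to 1000000. AT1G69490 and AT4G27260 were left out beforehand, and the first of these met the rule. Of the 17320 genes with a mean of at least 1 CPM in the 6 libraries, 205 had no overlap and 0.976% became members. All 169 are protein coding.

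The libraries come from seedlings harvested 12 days after germination, in long days at 21 °C after stratification for 4 days at 4 °C. The 6 soil-grown genotypes had 3 independent biological replicates each by the design text: hda9-1 h2a.z-5, hda9-1, hda6-1 h2a.z-5, hda6-1, h2a.z-5 and the wild type Col-0. hda9-1 and hda6-1 are each a single SALK insertion line in a histone deacetylase gene, and h2a.z-5 is a single line with a frameshift in HTA8 plus a pair of further SALK insertions. Col-0 seedlings given the deacetylase inhibitor trichostatin A (TSA) and their Mock controls had 5 replicates each, and by the labels the plants for TSA treatment grew in MS medium with sucrose in place of soil. The labels give no dose or duration for TSA. The sample labels, which were followed for all groups, give h2a.z-5, whereas the submitters' design text has nrp1-1 nrp2-2 in its place. In bulk seedlings, fewer cells of a type and less RNA per cell cannot be told apart.

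Histone deacetylases remove acetyl groups from histone tails, and acetylated histone H3 is found at genes that are being transcribed. HDA9 is a class I deacetylase of the RPD3 type that works with the SANT-domain protein PWR and the WD40 protein HOS15, and its loss raises H3 acetylation at many promoters. H2A.Z is a histone variant, encoded in Arabidopsis by HTA8, HTA9 and HTA11, that the SWR1 complex places near transcription starts. The series asks how H3 acetylation bears on the placing of H2A.Z.

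HDA9 averaged 1.04 ± 0.294 CPM in hda9-1 h2a.z-5, 1.60 ± 0.0454 CPM in hda9-1 and 13.8 ± 1.42 CPM in Col-0 (SD, n = 3 each). HTA11 averaged 1.06 ± 0.283 CPM in hda9-1 h2a.z-5 and 1.67 ± 0.320 CPM in h2a.z-5, against 43.6 ± 4.46 CPM in hda9-1 and 61.1 ± 8.73 CPM in Col-0. HTA8 and HTA9 were also lower in h2a.z-5 than in Col-0, at 6.18 against 16.8 CPM and 53.6 against 143 CPM. HDA6 went against its labels: it was at 15.1 to 18.6 CPM under the label hda6-1 h2a.z-5 and at 88.3 to 153 CPM under hda6-1, against 12.4 to 18.8 CPM in Col-0. Library totals, as summed gene counts, were 32795474 to 39633678 in the genotypes and 30257874 to 40395659 in TSA and Mock. The summed CPM of 11 photosynthesis genes that mark leaf cells ran from 74781 to 103985 in the 6 hda9-1 libraries and from 87323 to 108161 in Col-0. The summed CPM of 10 root markers ran from 68.6 to 88.2 in the 6 and from 54.3 to 77.5 in Col-0, with 4 of the 10 at 0 in hda9-1 h2a.z-5 and in hda9-1 and 5 of the 10 at 0 in Col-0.

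A pair of features of the libraries touch the members. hda9-1 h2a.z-5 replicate 3 was the highest of the 6 hda9-1 libraries for 101 members, and its TMM effective library size, a scale set by the bulk of genes, was 1.19 times its total. With CPM taken from TMM effective sizes, 215 genes met the rule and 115 of them were members. Without that library 169 genes met the rule, of which 154 were members, and without replicate 2 of hda9-1 h2a.z-5, the lowest of the 6 for 60 members, 362 genes met it. Replicate 5 of TSA and of Mock also stood apart in several members, and the counts of members called in TSA are given with and without it, as are the values of several such members.

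The members differed in how far they stood above the other libraries. The ratio of means ran from 1.302 to 6.98 with a median of 1.53, and 93 members reached 1.5, 18 reached 2 and 5 reached 3. Without replicate 3 of hda9-1 h2a.z-5, 10 members reached 2 and 3 reached 3. The lowest of the 6 hda9-1 libraries was 1.001 to 2.08 times the highest of the other 12, with a median of 1.06, so that most members were separated by a narrow margin. Just inside the limit on the ratio were AT1G43690 at 1.302, APRL5 at 1.307, LKP2 at 1.307 and ECT7 at 1.308, and just outside it KCS4 at 1.295, AT1G77770 at 1.294, CAT2 at 1.288 and FUT12 at 1.284. Just inside the limit on overlap, the lowest hda9-1 library of AFB2 had 47.9 CPM, against 47.8 CPM in the highest other library. RD21A, RPT5A and AT2G27680 came next, at 458 against 457 CPM, 100.5 against 100.2 CPM and 225 against 224 CPM. Just outside, ATG8F had 47.20 against 47.23 CPM, and PI4K GAMMA 7, AT1G75400 and AT3G50690 had 47.34 against 47.41 CPM, 19.30 against 19.33 CPM and 20.06 against 20.10 CPM.

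**Figure D1:**
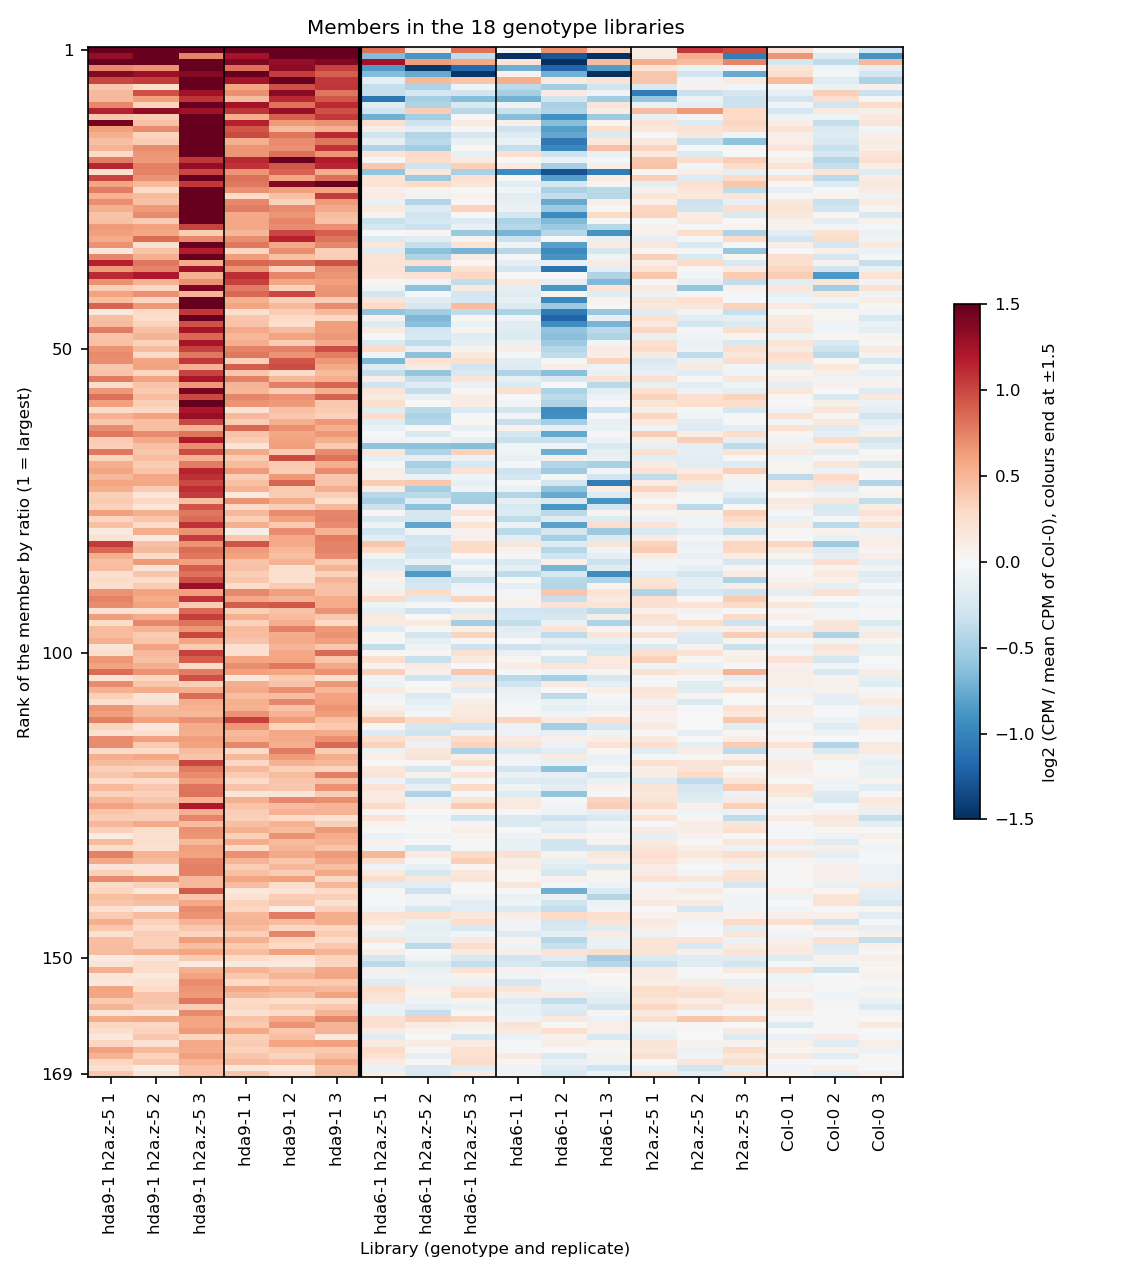
Log2 of the CPM of each member divided by its mean in Col-0, in the 18 genotype libraries (columns), with members ordered by ratio from the top and colours ending at ±1.5. The 6 hda9-1 libraries at the left are red for every member because the rule chose them so, and replicate 3 of hda9-1 h2a.z-5 is the darkest column, being the highest of the 6 for 101 members.

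The sequences upstream of the 4 members with the widest gap and of WRR4, an NLR member described below, are shown. The 4 were taken for the clearest separation. WRR4 is an example of the family with the largest share of its own tested genes among the members. Each run is the 150 bases before the annotated start of the gene in TAIR10.1 from RefSeq, 5′ to 3′ on the strand of the gene, with capitals marking matches to the motifs named below.
AT5G62280, chr5:25016710-25016859, plus strand: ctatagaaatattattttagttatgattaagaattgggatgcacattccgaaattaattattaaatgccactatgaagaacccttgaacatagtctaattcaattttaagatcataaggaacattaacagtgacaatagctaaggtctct
AT3G28270, chr3:10537855-10538004, plus strand: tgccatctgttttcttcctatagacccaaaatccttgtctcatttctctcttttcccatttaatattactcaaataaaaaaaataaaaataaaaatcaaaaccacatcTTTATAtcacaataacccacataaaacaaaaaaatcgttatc
LSU1, chr3:18375941-18376090, minus strand: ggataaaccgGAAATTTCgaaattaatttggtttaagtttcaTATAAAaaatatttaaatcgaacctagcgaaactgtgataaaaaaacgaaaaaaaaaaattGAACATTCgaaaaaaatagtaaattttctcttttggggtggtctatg
CPR5, chr5:25948398-25948547, minus strand: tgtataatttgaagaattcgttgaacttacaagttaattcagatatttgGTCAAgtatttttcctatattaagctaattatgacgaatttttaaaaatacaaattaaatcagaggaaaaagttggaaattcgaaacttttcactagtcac
WRR4, chr1:21167415-21167564, plus strand: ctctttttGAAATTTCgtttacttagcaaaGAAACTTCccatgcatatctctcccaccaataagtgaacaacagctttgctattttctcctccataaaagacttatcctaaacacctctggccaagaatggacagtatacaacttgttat
The capitals are a TATA box in AT3G28270 (TATAAA, read on the opposite strand), a TATA box and a pair of heat shock elements (GAANNTTC) in LSU1, a W-box core in CPR5 (TTGAC, read on the opposite strand) and a pair of heat shock elements in WRR4. The stretch shown for AT5G62280 held none of the 7 motifs searched.

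Motif frequencies were read in the 300 bases from 250 before to 50 after the start, on both strands, for the 169 members and for 19848 protein-coding genes. A W-box core, which WRKY factors bind, was in 53.8% of members and 50.6% of all promoters. The TATA box was in 49.7% of members and 51.3% of all, the heat shock element in 11.2% and 11.4%, and the G-box (CACGTG) in 7.10% and 8.81%. The site II element (TGGGCC) was in 14.2% of members and 18.8% of all, the evening element (AAAATATC) in 4.73% and 7.14%, and the telo box (AAACCCTA) in 1.78% and 5.57%. Of the 10 NLR members described below, 6 held a W-box core, 6 a TATA box and 5 a heat shock element. A G-box was in 1, an evening element in 1, and site II and the telo box in 0. The shares over other NLR promoters were not read. These are matches of letters and were not tested.

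**Figure D2:**
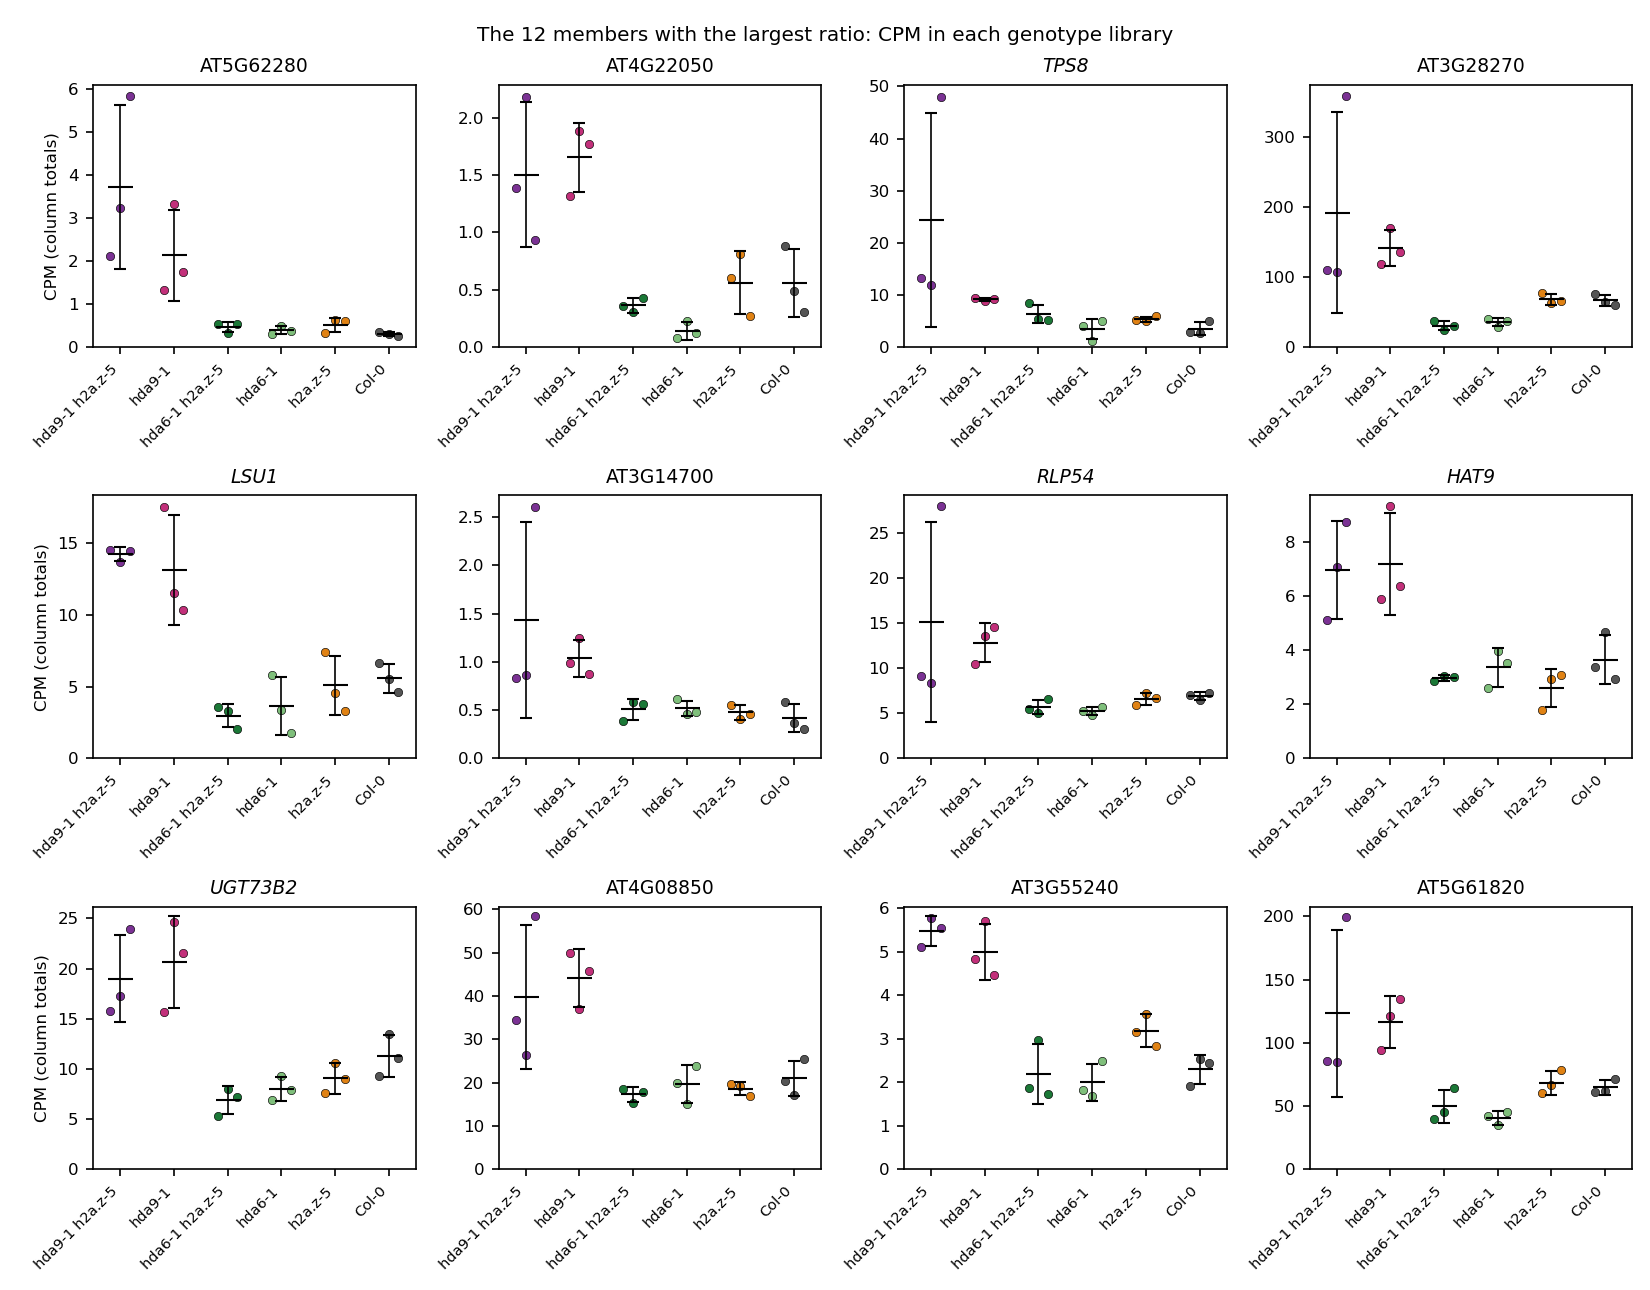
CPM in each of the 3 libraries of the 6 genotypes (points), with the mean and SD (bars), for the 12 members with the largest ratio, each on its own linear axis. The libraries of hda9-1 h2a.z-5 and hda9-1 lie above all others in each panel by the choice of members, and replicate 3 of hda9-1 h2a.z-5 stands far above its group for TPS8 (48.0 CPM) and AT3G28270 (358 CPM).

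The members with the largest ratios were a mixed group of poorly described and stress-related genes. AT5G62280, a DUF1442 protein of unknown function at chr5:25016860-25018265, plus strand, had 2.12, 3.23 and 5.82 CPM in hda9-1 h2a.z-5 and 1.32, 3.34 and 1.74 CPM in hda9-1. It had 0.532, 0.330 and 0.532 CPM under the label hda6-1 h2a.z-5, 0.304, 0.485 and 0.380 CPM under hda6-1, 0.329, 0.634 and 0.597 CPM in h2a.z-5 and 0.353, 0.305 and 0.252 CPM in Col-0. The ratio of means was 6.98, on a low level throughout, and the lowest hda9-1 library had 2.08 times the CPM of the highest other library, the widest gap among the members.

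AT3G28270, which encodes a putative transmembrane protein with a DUF677 domain at chr3:10538005-10540070, plus strand, was the most abundant member with a ratio above 3. It had 110.4, 108 and 358 CPM in hda9-1 h2a.z-5 and 119, 169.7 and 136 CPM in hda9-1. It had 37.3, 24.7 and 29.8 CPM under the label hda6-1 h2a.z-5, 40.5, 29.3 and 37.5 CPM under hda6-1, 77.0, 62.7 and 65.3 CPM in h2a.z-5 and 76.0, 64.3 and 60.7 CPM in Col-0. The 6 libraries of the lines labelled hda6-1 lay below those of h2a.z-5 and Col-0, and the ratio was 3.31. LSU1, a small protein induced by low sulfur at chr3:18374908-18375940, minus strand, had 14.6, 13.7 and 14.5 CPM in hda9-1 h2a.z-5 and 17.55, 11.5 and 10.4 CPM in hda9-1. It had 3.55, 3.2999 and 2.03 CPM under the label hda6-1 h2a.z-5, 5.81, 3.39 and 1.75 CPM under hda6-1, 7.38, 4.54 and 3.31 CPM in h2a.z-5 and 6.64, 5.52 and 4.62 CPM in Col-0, with a ratio of 3.17. Unlike AT3G28270, LSU1 was even across the 3 libraries of hda9-1 h2a.z-5.

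TPS8, of the trehalose-6-phosphate synthase family at chr1:26470795-26474833, minus strand, had 13.3, 11.9 and 48.0 CPM in hda9-1 h2a.z-5 and 9.37, 8.81 and 9.23 CPM in hda9-1, and between 1.22 and 8.44 CPM (median 4.93) in the other 12 libraries. Replicate 3 of hda9-1 h2a.z-5 was far above the other libraries, and the ratio was 3.60 with it and 2.26 without it. AT4G22050, an aspartyl protease family member, had 1.39, 2.18 and 0.937 CPM in hda9-1 h2a.z-5 and 1.32, 1.88 and 1.77 CPM in hda9-1, and between 0.0761 and 0.883 CPM (median 0.330) in the other 12 libraries. Its level was among the lowest of the members, and its ratio was 3.88. AT3G14700, of the SART-1 family, had 0.833, 0.863 and 2.61 CPM in hda9-1 h2a.z-5 and 0.988, 1.25 and 0.872 CPM in hda9-1, and between 0.303 and 0.608 CPM (median 0.471) in the other 12 libraries.

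Other members of this group encode surface receptors and enzymes. RLP54, a receptor-like protein, had 9.12, 8.36 and 28.0 CPM in hda9-1 h2a.z-5 and 10.4, 13.5 and 14.5 CPM in hda9-1, and between 4.80 and 7.27 CPM (median 6.18) in the other 12 libraries. AT4G08850, a leucine-rich repeat receptor-like kinase, had 34.5, 26.4 and 58.5 CPM in hda9-1 h2a.z-5 and 49.8, 36.9 and 45.7 CPM in hda9-1, and between 15 and 25.3 CPM (median 18.9) in the other 12 libraries. UGT73B2, a UDP-glucosyltransferase of the flavonoid-glycosylating class, had 15.8, 17.3 and 24.0 CPM in hda9-1 h2a.z-5 and 15.7, 24.7 and 21.5 CPM in hda9-1, and between 5.32 and 13.4 CPM (median 8.52) in the other 12 libraries. In all 3 the gap between the 6 and the 12 was smaller than the SD within hda9-1 h2a.z-5.

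HAT9, a homeodomain-leucine zipper transcription factor, had 5.10, 7.06 and 8.73 CPM in hda9-1 h2a.z-5 and 5.88, 9.35 and 6.36 CPM in hda9-1, and between 1.77 and 4.67 CPM (median 3.02) in the other 12 libraries. AT3G55240, a plant protein of unknown function, had 5.10, 5.79 and 5.54 CPM in hda9-1 h2a.z-5 and 4.84, 5.70 and 4.46 CPM in hda9-1, and between 1.68 and 3.57 CPM (median 2.46) in the other 12 libraries. AT5G61820, annotated as a stress up-regulated Nod 19 protein, had 86.0, 84.4 and 199.7 CPM in hda9-1 h2a.z-5 and 94.2, 121 and 135 CPM in hda9-1, and between 34.6 and 78.4 CPM (median 60.6) in the other 12 libraries. Of these, AT3G55240 was the most even within the 6 libraries.

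The 6 most abundant members had ratios between 1.32 and 1.75. RD21A, a vacuolar papain-like cysteine protease, had 567, 458 and 597 CPM in hda9-1 h2a.z-5 and 565, 543 and 527 CPM in hda9-1, and between 356 and 457 CPM (median 407) in the other 12 libraries. FIB4, a plastid fibrillin, had 370.4, 393 and 347 CPM in hda9-1 h2a.z-5 and 443, 489 and 391 CPM in hda9-1, and between 202 and 273 CPM (median 231) in the other 12 libraries. CH1, the chlorophyllide a oxygenase that makes chlorophyll b, had 274, 239.7 and 347 CPM in hda9-1 h2a.z-5 and 246, 233 and 241 CPM in hda9-1, and between 128 and 213 CPM (median 167.6) in the other 12 libraries. FIB4 had the widest margin of these, with a ratio of 1.75, against 1.34 for RD21A and 1.52 for CH1.

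AT5G21090, a leucine-rich repeat protein, had 234, 261 and 304 CPM in hda9-1 h2a.z-5 and 277, 327 and 354 CPM in hda9-1, and between 147 and 203 CPM (median 178) in the other 12 libraries. AT3G42050, subunit H of the vacuolar proton ATPase, had 286, 266 and 319 CPM in hda9-1 h2a.z-5 and 273, 253 and 288 CPM in hda9-1, and between 178 and 247 CPM (median 203) in the other 12 libraries. GT72B1, a glycosyltransferase that acts on xenobiotic phenols and on lignin precursors, had 220.1, 263 and 247 CPM in hda9-1 h2a.z-5 and 254, 271 and 219.8 CPM in hda9-1, and between 164 and 215 CPM (median 184) in the other 12 libraries. Over all members the mean in the 6 libraries ran from 1.24 to 543 CPM with a median of 31.4, and 148 members reached 10 CPM.

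By the product text of the annotation, 57 members fell into 8 families and 112 into none. These families were chosen after the values were seen and get no test. The densest was that of NLR disease resistance proteins, intracellular immune receptors with nucleotide-binding and leucine-rich repeat domains, of which 10 of the 121 tested genes (8.26%) were members, against 0.814% of all 20771 genes tested in the genotypes. Receptor-like kinases and receptor-like proteins gave 7 of 181 genes, other protein kinases 7 of 277, and ubiquitin ligases and related enzymes 14 of 527. Proteasome subunits gave 2 of 48, cytochrome P450 enzymes 3 of 133, UDP-sugar glycosyltransferases 2 of 104, and transcription factors 12 of 778.

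The 10 NLR members had ratios between 1.67 and 2.12, or between 1.36 and 1.77 without replicate 3 of hda9-1 h2a.z-5. AT3G44630, a TIR-type NLR at chr3:16195848-16201225, plus strand, had 41.4, 34.7 and 73.4 CPM in hda9-1 h2a.z-5 and 41.9, 32.3 and 39.7 CPM in hda9-1, and between 15.1 and 28.5 CPM (median 23.6) in the other 12 libraries. AT1G31540 had 13.6, 13.0 and 37.7 CPM in hda9-1 h2a.z-5 and 14.4, 16.3 and 17.3 CPM in hda9-1, and between 4.72 and 11.04 CPM (median 9.17) in the other 12 libraries. WRR4, known for resistance to white rust, had 18.3, 17.1 and 31.9 CPM in hda9-1 h2a.z-5 and 19.8, 17.4 and 20.1 CPM in hda9-1, and between 9.34 and 15.8 CPM (median 12.4) in the other 12 libraries. In each of them replicate 3 of hda9-1 h2a.z-5 was well above the other 5 hda9-1 libraries, which lay close together.

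RPP1, which recognises an effector of downy mildew, had 42.8, 41.1 and 88.2 CPM in hda9-1 h2a.z-5 and 57.1, 42.3 and 52.8 CPM in hda9-1, and between 18.19 and 38.9 CPM (median 33.3) in the other 12 libraries. RPS6, known for resistance to Pseudomonas syringae, had 14.8, 10.97 and 26.5 CPM in hda9-1 h2a.z-5 and 16.1, 13.8 and 15.3 CPM in hda9-1, and between 5.31 and 10.7 CPM (median 9.52) in the other 12 libraries. The remaining NLR members were AT5G38850, AT5G41740, AT3G44670, AT2G14080 and AT1G61300. Among the 111 NLR genes tested that were not members, 92 had a positive log2 fold change in hda9-1 against Col-0 (median 0.28, against 0.00 over all genes, of which 49.5% were positive) and 98 in hda9-1 h2a.z-5 against h2a.z-5 (median 0.50, against 0.01). By edgeR's quasi-likelihood test none of these 111 passed an adjusted p of 0.05 in either comparison, but the calls depend on the fit. At an unadjusted p under 0.05, 17 were higher and 2 lower in hda9-1 (8.57% and 8.48% of all genes) and 36 higher and 0 lower in hda9-1 h2a.z-5 (7.16% and 6.26%). DESeq2 called 3 of the 111 higher in hda9-1 (2.99% of all genes) and 7 in hda9-1 h2a.z-5 (1.44%), and none lower (2.67% and 1.25%). With the replicate number as a block, edgeR called 15 higher and 1 lower in hda9-1 (9.18% and 7.15% of all genes) and 21 higher and 1 lower in hda9-1 h2a.z-5 (4.16% and 3.4%). Since the members were taken out by these same values, the counts are a description. The size of the shift in hda9-1 h2a.z-5 against h2a.z-5 depended on single libraries. Over all 121 NLR genes tested, members included, its median log2 fold change was 0.52. It was 0.21 without replicate 3 of hda9-1 h2a.z-5 and 0.72 without replicate 2.

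RPP1, AT3G44670 and AT3G44630 share sequence: 44.4%, 36.2% and 33.9% of their 50-base windows also occur in another gene, most often another of these, so their counts could be split or shared between copies. They are also neighbours of HDA9, which lies at chr3:16226519-16230009. AT3G44670 and AT3G44630 are 2 of the 20 tested genes within 100 kb of HDA9, and RPP1 is the only further member among the 102 within 500 kb. Whether carrying the insertion in this stretch of the chromosome bears on them was not tested. The members were otherwise spread over the chromosomes, with 39, 20, 43, 25 and 42 on chromosomes 1 to 5, between 0.628% (chromosome 2) and 1.04% (chromosome 3) of the tested genes of each.

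A second set of members acts in immune and hormone signalling and was picked by name after the values were seen. CPR5, a nuclear pore membrane protein that restrains immune responses, had 23.0, 22.5 and 30.0 CPM in hda9-1 h2a.z-5 and 22.2, 24.2 and 23.8 CPM in hda9-1, and between 10.2 and 15.5 CPM (median 14.1) in the other 12 libraries. PBS1, a receptor-like cytoplasmic kinase, had 41.3, 42.5 and 47.0 CPM in hda9-1 h2a.z-5 and 41.3, 50.3 and 46.4 CPM in hda9-1, and between 26.3 and 34.4 CPM (median 30.3) in the other 12 libraries. MPK6, a mitogen-activated protein kinase of the immune and stress cascades, had 37.6, 36.4 and 40.9 CPM in hda9-1 h2a.z-5 and 36.3, 40.4 and 40.2 CPM in hda9-1, and between 25.6 and 29.5 CPM (median 27.9) in the other 12 libraries. These 3 varied little within the 6 libraries, and their lowest hda9-1 library was 1.43, 1.199 and 1.23 times the highest other library.

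COI1, the F-box receptor of jasmonate, had 42.1, 34.8 and 56.8 CPM in hda9-1 h2a.z-5 and 41.1, 35.9 and 43.1 CPM in hda9-1, and between 18.8 and 31.4 CPM (median 28.5) in the other 12 libraries. MYC3, a transcription factor freed by jasmonate perception, had 30.2, 36.2 and 60.9 CPM in hda9-1 h2a.z-5 and 33.4, 43.5 and 34.5 CPM in hda9-1, and between 13.9 and 28.4 CPM (median 23.0) in the other 12 libraries. The auxin receptor AFB5 had 81.4, 71.8 and 74.3 CPM in hda9-1 h2a.z-5 and 74.1, 69.1 and 82.2 CPM in hda9-1, and between 46.5 and 60.0 CPM (median 50.8) in the other 12 libraries. The members also held the auxin receptor AFB2, the auxin biosynthesis enzyme YUC2, and the U-box ubiquitin ligases PUB13 and PUB17, with ratios of 1.36, 1.53, 1.56 and 1.36.

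The members named here for the turnover of proteins and membranes had ratios near or below the median, while the RING/U-box protein AT1G32530 had 1.83. CUL4, a cullin scaffold of ubiquitin ligases, had 54.5, 48.4 and 80.3 CPM in hda9-1 h2a.z-5 and 53.8, 48.97 and 54.4 CPM in hda9-1, and between 24.6 and 47.2 CPM (median 35.9) in the other 12 libraries. The proteasome subunits RPT5A and ATS9, the endosomal sorting proteins ELC and SKD1 and the autophagy protein ATG6 had ratios of 1.33, 1.34, 1.37, 1.47 and 1.41. The 12 transcription factors had ratios between 1.41 and 2.25, and included HB-7, an abscisic acid-responsive homeodomain protein, the zinc finger protein NTT, the GRAS protein SCL14, WRKY47 and NAC017. HB-7 had 5.10, 5.46 and 16.3 CPM in hda9-1 h2a.z-5 and 6.36, 4.63 and 4.87 CPM in hda9-1, and between 1.89 and 4.05 CPM (median 3.47) in the other 12 libraries, with replicate 3 of hda9-1 h2a.z-5 far above the other 5 hda9-1 libraries.

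Neighbouring members were few. COI1 and AT2G39950 lie 677 bp apart on the same strand, and PEX13, a peroxisome import protein, and AT3G07565 lie 35 bp apart on opposite strands. AT3G44630 and AT3G44670, and AT4G19670 and AT4G19700, are adjacent among tested genes, and AT3G11780 and AT3G11810 are 2152 bp apart with 1 tested gene between. In all, 38 members overlap another annotated gene, 33 of them one on the opposite strand, and the strand setting of the counting is not given in the sources used here. A total of 12 members shared over 10% of their 50-base windows with another gene and 131 shared none.

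No member belonged to any of 13 lists of marker and pathway genes. Of 19 salicylic acid defence genes tested, none was called in hda9-1 against Col-0 by edgeR (adjusted p under 0.05), where 0.79% of all genes were called higher and 0.958% lower, and none in hda9-1 h2a.z-5 against h2a.z-5 (0.279% and 0.361%). At an unadjusted p under 0.05, 9 and 7 of the 19 were higher and none was lower, DESeq2 called 5 and 2 higher, and the replicate block 10 and 4. Their median log2 fold changes were 0.88 in hda9-1 and 0.95 in hda9-1 h2a.z-5. Their summed CPM was 172 to 578 in hda9-1 h2a.z-5 and 570.0 to 943 in hda9-1, against 195 to 216 in h2a.z-5 and 169 to 367 in Col-0. The libraries of hda9-1 lay above those of Col-0, while those of hda9-1 h2a.z-5 overlapped both h2a.z-5 and hda9-1. Of 14 flowering time genes tested, edgeR called MAF4 and MAF5, relatives of the flowering repressor FLC, lower in hda9-1 against Col-0. Their log2 fold changes were -1.49 ± 0.37 (adjusted p = 0.04995 by edgeR, at the limit) and -2.51 ± 0.54 (adjusted p = 0.0303 by edgeR). DESeq2 called 1 of the 14 higher and 2 lower there, and the replicate block 2 higher and 3 lower. In hda9-1 h2a.z-5 against h2a.z-5, edgeR and DESeq2 each called 0 higher and 1 lower, and the replicate block 1 higher and 1 lower. Of the 9 jasmonate, 8 auxin response, 7 senescence, 9 circadian clock and 6 heat shock genes tested, edgeR called none in either comparison. At an unadjusted p under 0.05 these lists had 0, 1, 2, 0 and 0 genes higher and 0, 0, 0, 1 and 1 lower in hda9-1 against Col-0, and 0, 5, 1, 1 and 0 higher and 0, 1, 0, 0 and 1 lower in hda9-1 h2a.z-5 against h2a.z-5. DESeq2 called 1 auxin response and 1 senescence gene higher in hda9-1, and 3 auxin response genes higher and 1 heat shock gene lower in hda9-1 h2a.z-5. The replicate block called 1 auxin response, 3 senescence and 4 heat shock genes higher and 1 clock gene lower in hda9-1, and 4 auxin response, 1 senescence and 2 heat shock genes higher and 1 heat shock gene lower in hda9-1 h2a.z-5. Beside these list counts stand the shares of all genes. In hda9-1, 8.57% were higher and 8.48% lower at the unadjusted p, 2.99% and 2.67% by DESeq2, and 9.18% and 7.15% with the block. In hda9-1 h2a.z-5 the shares were 7.16% and 6.26%, 1.44% and 1.25%, and 4.16% and 3.4%, in the same order.

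TSA against Mock uses libraries that had no part in choosing the members, and shows how the same genes stood under a chemical inhibitor of deacetylases. Of the 168 members tested, 16 rose (9.52%) and 33 fell (19.6%) in TSA by edgeR's quasi-likelihood test at an adjusted p under 0.05, where 18.5% of all 20201 genes rose and 16.7% fell. Their median log2 fold change was -0.21, against -0.07 over all genes, and 55 were positive and 113 negative. With the replicate number as a block, 19 rose and 45 fell (22.7% and 22.1% of all genes). The split depends on the scaling: TSA libraries had TMM effective sizes of 0.746 to 1.09 times their totals and Mock libraries 1.05 to 1.18 times. With totals as library sizes the median of all genes moved by -0.26, and 7 members rose and 53 fell, or 11.7% of called members higher in place of 32.7%, beside 12.2% and 23.2% of all genes. Leaving out 1 library gave 8, 11, 18, 9 and 17 members higher without TSA replicates 1 to 5, in that order. Without Mock replicates 1 to 5 the counts were 9, 17, 12, 10 and 19. Over all 10 such fits, 25 to 43 members were lower. The fewest rises, without TSA replicate 1, stood beside 15.24% of all genes higher and 12.14% lower. The most rises, without Mock replicate 5, stood beside 23.79% higher and 19.82% lower. The most falls, without TSA replicate 5, stood beside 20.37% higher and 21.81% lower. The summed CPM of the leaf markers was 35444 to 67053 in TSA and 23863 to 71274 in Mock, and that of the root markers 94.1 to 216 in TSA and 114 to 171 in Mock, so that the groups overlapped in both; their part in the result was not tested.

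**Figure D3:**
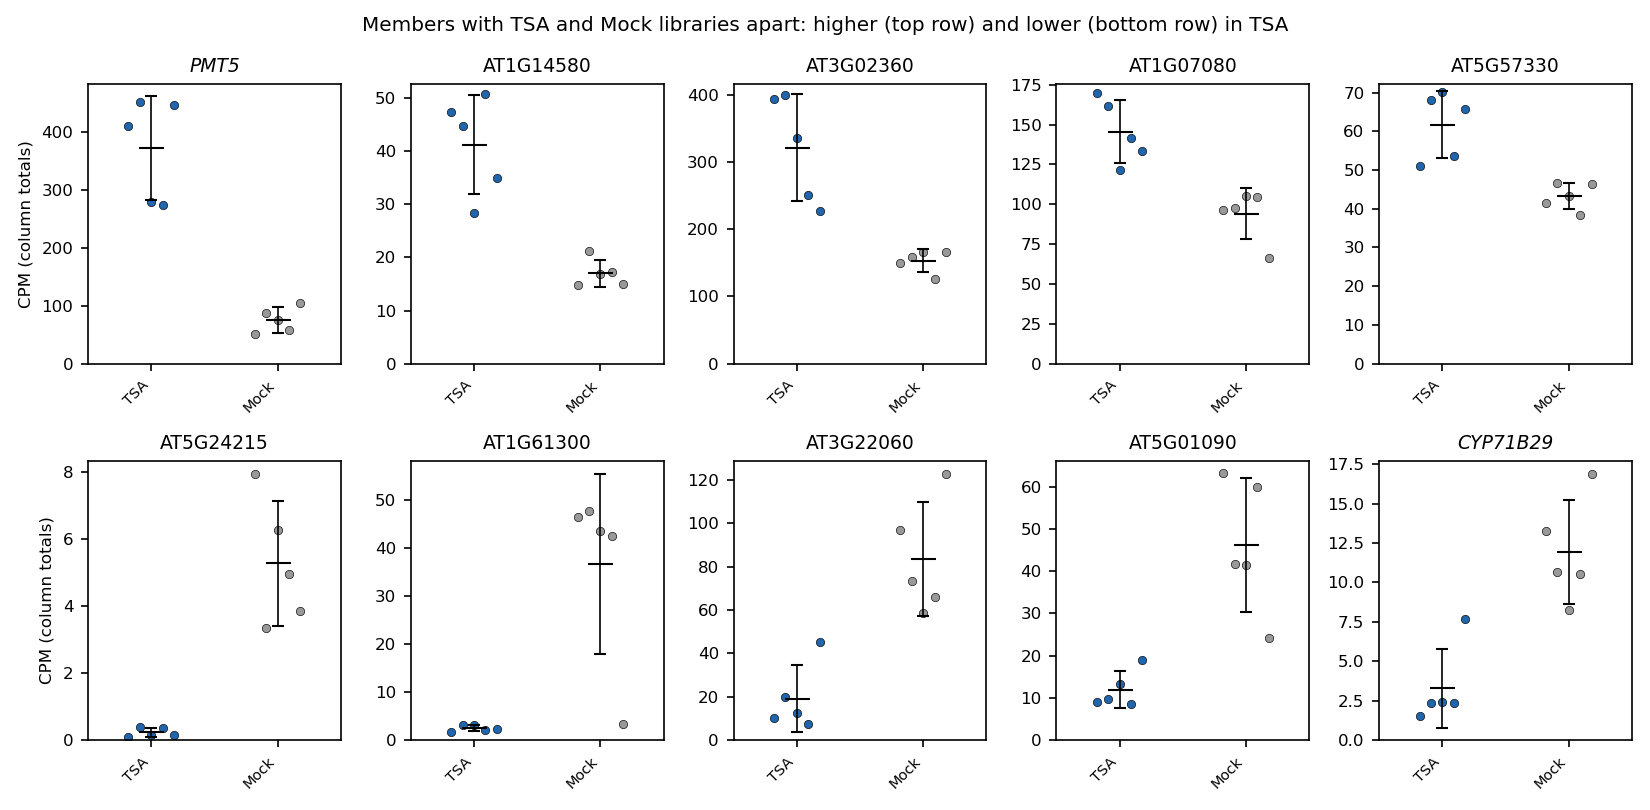
CPM in each of the 5 TSA and 5 Mock libraries (points), with the mean and SD (bars), for the 5 members with the largest rises (top row) and the 5 with the largest falls (bottom row) among called members whose groups do not overlap. PMT5 lies between 273 and 451 CPM in TSA, against 50.3 to 105 CPM in Mock, and AT1G61300 lies between 1.68 and 3.11 CPM in TSA.

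All 5 TSA libraries lay above all 5 Mock libraries in 5 members (9.28% of all genes) and below them in 29 (13.6% of all genes), of which 20 were called lower. PMT5, a plasma membrane polyol and monosaccharide transporter, had 411, 451, 278, 273 and 447 CPM in TSA, against 50.3, 87.2, 75.0, 57.3 and 105 CPM in Mock. Its log2 fold change was 2.60 ± 0.27 (SE, adjusted p = 0.000111 by edgeR). AT1G14580, a C2H2 zinc finger protein, had 47.5, 44.8, 28.4, 50.8 and 34.9 CPM in TSA, against 14.9, 21.2, 16.8, 17.3 and 14.9 CPM in Mock, a change of 1.59 ± 0.25 (adjusted p = 0.000915 by edgeR). In both, every TSA library was well clear of every Mock library.

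AT3G02360, a 6-phosphogluconate dehydrogenase of the pentose phosphate pathway, had 394, 399.9, 336, 251 and 227 CPM in TSA, against 149.2, 159, 166, 126 and 166 CPM in Mock. AT1G07080, a thioredoxin superfamily protein, had 170.0, 162, 122, 142 and 133 CPM in TSA, against 96.2, 97.7, 105, 105 and 66.4 CPM in Mock. AT5G57330, a galactose mutarotase-like protein, had 51.2, 68.2, 70.1, 53.6 and 65.8 CPM in TSA, against 41.6, 46.7, 43.4, 38.4 and 46.3 CPM in Mock. Their log2 fold changes were 1.38 ± 0.25, 0.93 ± 0.23 and 0.79 ± 0.14 (adjusted p = 0.00174, 0.00956 and 0.00153 by edgeR). HB-7 and PA2, a peroxidase, also rose, at 1.41 ± 0.30 and 1.41 ± 0.35, with groups that overlapped.

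Of the members that fell, AT5G24215, an uncharacterised protein, had 0.0798, 0.397, 0.149, 0.351 and 0.160 CPM in TSA, against 7.93, 3.35, 6.28, 4.94 and 3.86 CPM in Mock. Its log2 fold change was -4.24 ± 0.45 (adjusted p = 0.000132 by edgeR). It overlaps the lncRNA AT5G03695 on the opposite strand by 539 bp, and without strand information the reads of the pair cannot be told apart. AT1G61300, an NLR, had 1.68, 3.11, 3.07, 2.18 and 2.35 CPM in TSA, against 46.4, 47.7, 43.5, 42.5 and 3.299 CPM in Mock, a change of -3.64 ± 0.58 (adjusted p = 0.000944 by edgeR). Mock replicate 5 was close to the TSA libraries, and without replicate 5 of both groups the change was -3.87. Of its windows, 23.5% occur in another gene.

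AT3G22060, related to receptor-like kinases, had 10.4, 20.1, 12.6, 7.24 and 45.3 CPM in TSA, against 96.8, 73.2, 58.7, 65.9 and 123 CPM in Mock. AT5G01090, a lectin family protein, had 8.99, 9.77, 13.2, 8.49 and 19.0 CPM in TSA, against 63.3, 41.8, 41.4, 59.9 and 24.2 CPM in Mock. CYP71B29, a cytochrome P450, had 1.54, 2.32, 2.43, 2.38 and 7.71 CPM in TSA, against 13.3, 10.7, 8.26, 10.6 and 16.9 CPM in Mock. Their log2 fold changes were -1.93 ± 0.39, -1.72 ± 0.28 and -1.66 ± 0.36 (adjusted p = 0.00361, 0.00112 and 0.00479 by edgeR), and in each the highest TSA library, replicate 5, was below the lowest Mock library. UGT73B2 fell by 0.95 on the log2 scale, with 18.17, 24.6, 29.2, 19.1 and 36.5 CPM in TSA, against 50.5, 76.8, 62.4, 43.4 and 59.3 CPM in Mock (adjusted p = 0.00369 by edgeR).

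Most NLR members fell in TSA. Of the 10, 7 fell (16.7% of all genes), none rose (18.5%), and all 10 had negative log2 fold changes, with a median of -1.12. Without replicate 5 of both groups, 7 fell and the median was -1.02. AT3G44630 had 22.4, 41.7, 32.4, 19.6 and 24.4 CPM in TSA, against 81.9, 111, 115, 95.2 and 41.8 CPM in Mock, a change of -1.41 ± 0.30 (adjusted p = 0.00485 by edgeR). WRR4 had 8.25, 16.5, 16.3, 9.74 and 12.3 CPM in TSA, against 35.9, 50.6, 45.9, 38.9 and 19.4 CPM in Mock, a change of -1.35 ± 0.28 (adjusted p = 0.0038 by edgeR). In both, no TSA library reached a Mock library, though the highest TSA value lay close to Mock replicate 5.

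AT3G44670, AT5G41740, RPP1 and AT1G31540 fell by edgeR at log2 fold changes of -1.19 ± 0.26, -1.30 ± 0.40, -1.06 ± 0.30 and -0.79 ± 0.25 (adjusted p = 0.00507, 0.0252, 0.0194 and 0.032). The call of AT5G41740 was lost without TSA replicate 1, 3 or 4, and that of AT1G31540 without Mock replicate 1, 2 or 3 or TSA replicate 1 or 3, with adjusted p of up to 0.0653 and 0.0682. RPS6, at -0.43 ± 0.21, was not called (adjusted p = 0.14 by edgeR) but passed with the replicate block (0.0489). AT5G38850 and AT2G14080 had -0.17 ± 0.35 and -0.10 ± 0.35, which did not pass the test. Of 104 NLR genes tested in TSA that were not members, 49 fell and 1 rose, with a median of -0.81. Outside the family by its product text, DAR4, an NLR-type protein with a LIM domain, and AT4G19500, a nucleotide-binding receptor protein, fell by 1.02 and 1.46 on the log2 scale.

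**Figure D4:**
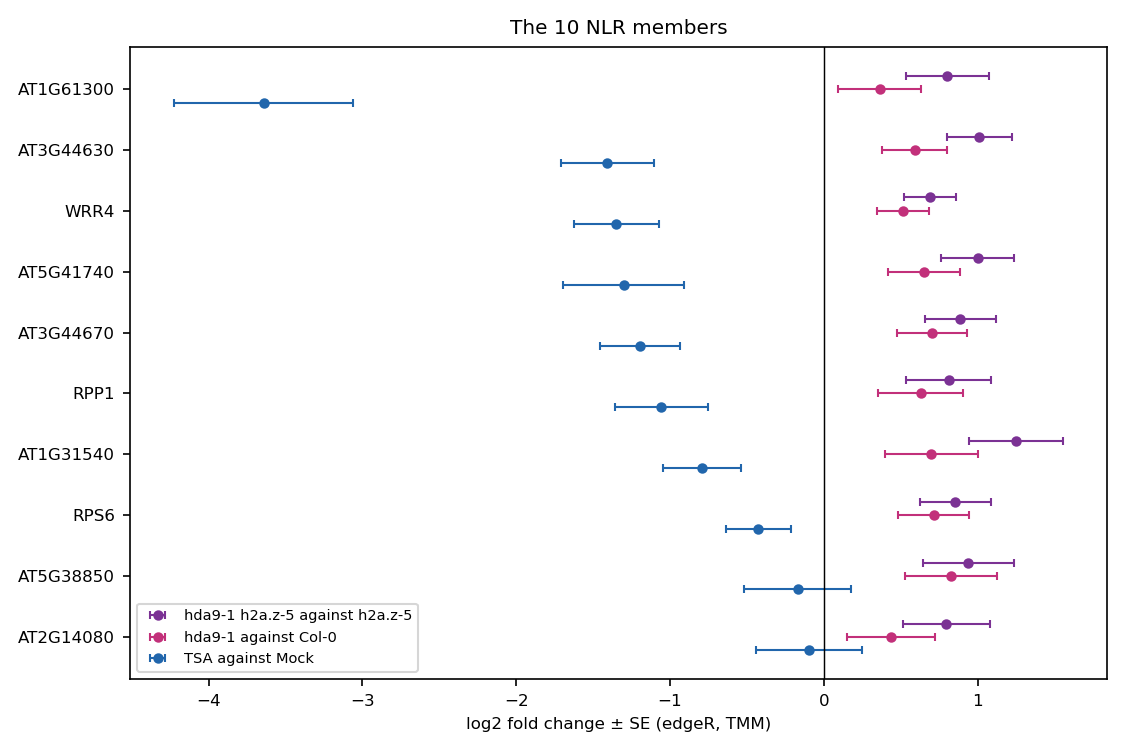
Log2 fold change (points) and SE (bars) from edgeR for the 10 NLR members, with TSA against Mock beside hda9-1 h2a.z-5 against h2a.z-5 and hda9-1 against Col-0. Both hda9-1 comparisons are positive because the members were chosen on them, whereas the TSA comparison, in other libraries, is negative for all 10, from -0.10 for AT2G14080 to -3.64 for AT1G61300.

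In TSA, of the 7 receptor-like members 3 fell and none rose, of the 14 ubiquitin members 3 rose (ELC, UBC32 and the F-box protein AT1G23780) and none fell, and of the 12 transcription factors HB-7 and AT1G14580 rose and IDD1 fell, beside 18.5% of all genes that rose and 16.7% that fell. Of 46 proteasome subunit genes tested, 21 rose and 2 fell, and of the 2 members ATS9 rose. The calls of ELC, UBC32, AT1G23780, ATS9 and IDD1 were lost in 7, 9, 5, 6 and 5 of the 10 fits that left out 1 library, with adjusted p of up to 0.0728, 0.106, 0.0829, 0.0970 and 0.0805. CPR5 had 14.9, 22.3, 17.1, 16.3 and 21.3 CPM in TSA, against 40.8, 36.6, 39.3, 38.2 and 20.9 CPM in Mock, a change of -0.67 ± 0.21 (adjusted p = 0.0262 by edgeR). The groups overlapped, and the call was lost in 7 of those 10 fits, with adjusted p of up to 0.0642. COI1, PBS1 and MPK6 did not pass the test, at -0.33 ± 0.21, -0.20 ± 0.16 and 0.13 ± 0.17.

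**Figure D5:**
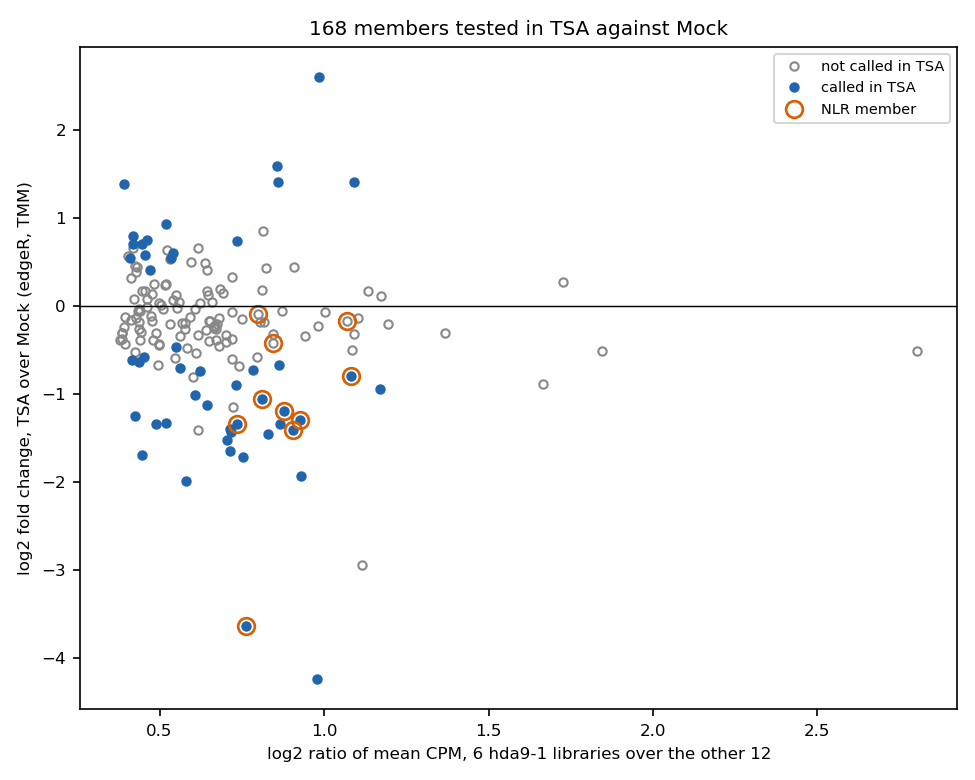
Log2 ratio of mean CPM in the 6 hda9-1 libraries over the other 12 (x axis) against the log2 fold change of TSA over Mock (y axis) for the 168 members tested in TSA. The called members (filled) lie on both sides of 0, with 16 above and 33 below, and the 10 NLR members (ringed) all lie below 0.

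For several members with large ratios, the TSA result turned on replicate 5. AT5G62280 had 0.372, 0.183, 0.248, 0.326 and 47.7 CPM in TSA, against 8.96, 12.8, 2.54, 3.14 and 46.4 CPM in Mock, so that replicate 5 was high in both groups while the other TSA libraries lay below the other Mock libraries. Its log2 fold change was -0.52 ± 1.43 (adjusted p = 0.802 by edgeR), but -4.24 without replicate 5 (adjusted p = 2.35e-05) and with the replicate block the adjusted p was 0.0153. AT3G55240 had 0.266, 0.244, 0.297, 0.225 and 5.76 CPM in TSA, against 5.85, 3.02, 1.19, 2.84 and 45.9 CPM in Mock, with a change of -2.95 ± 1.2003 that was not called (0.077 by edgeR) and of -3.29 without replicate 5 (3.84e-05). TPS8 had 16.4, 22.1, 19.0, 10.3 and 211 CPM in TSA, against 30.3, 69.6, 23.3, 17.8 and 303 CPM in Mock, and was called neither with (adjusted p = 0.696) nor without replicate 5 (0.0883) by edgeR. LSU1 had 7.05, 16.5, 23.4, 14.4 and 13.7 CPM in TSA, against 29.2, 35.4, 66.4, 30.3 and 2.28 CPM in Mock, a change of -0.88 ± 0.61 (adjusted p = 0.28), or -1.11 without replicate 5 (adjusted p = 0.00683) by edgeR. Over all members, 21 rose and 58 fell without replicate 5, where 27.2% of all genes rose and 27.2% fell. The 49 members called with replicate 5 were all called in the same direction without it.

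Between hda9-1 h2a.z-5 and hda9-1 the rule set no order. It had removed genes whose rise is lost in either genotype, so the lack of large differences is partly built in. The counts of members in hda9-1 h2a.z-5 against hda9-1 are therefore a description. By edgeR no member rose and none fell, where 0.636% of all genes rose and 0.308% fell. At an unadjusted p under 0.05, 1 member was higher and 9 lower (6.1% and 5.09% of all genes). DESeq2 called 0 higher and 3 lower (1.19% and 0.847%), and the replicate block gave 0 higher and 2 lower, AT3G22060 (adjusted p = 0.0307) and AT3G51130 (0.0442), where 2.05% and 2.14% of all genes were called. The log2 fold changes lay between -0.60 for AT3G22060 and 1.25 for TPS8, with a median of -0.02 and SEs from 0.0983 to 0.435. The direction over the members depends on scaling and on 1 library: the mean was higher in hda9-1 h2a.z-5 for 102 members with library totals, for 77 with TMM sizes, and for 55 with library totals without replicate 3 of hda9-1 h2a.z-5.

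The interaction, which asks whether the difference that goes with hda9-1 changes in the h2a.z-5 background, is built from the differences that chose the members. The rule had already removed genes whose rise is lost in 1 background, so the counts are a description and nothing is read from them. No member was called in either direction by edgeR (0.0289% and 0.00481% of all genes), 0 were positive and 4 negative at an unadjusted p under 0.05 (1.25% and 0.924%), and none was called by DESeq2 or with the block (0.0481% and 0.0193% of all genes in each). The member values ran from -0.91 for PMT5 to 0.70 for TPS8, with a median of -0.06. PMT5 had 43.7, 39.7 and 53.6 CPM in hda9-1 h2a.z-5 and 56.0, 78.1 and 58.3 CPM in hda9-1, against 33.8, 30.9 and 33.1 CPM in h2a.z-5 and 27.1, 19.0 and 30.5 CPM in Col-0. Its lowest hda9-1 library still exceeded the highest of the other genotypes by 1.18 times.

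In the genotypes with HDA9 intact, the rule kept every library below those of hda9-1. Genes that rise clearly in these genotypes could therefore not be members. The lack of rises is partly built in, and the counts of rises and falls are a description. Each of these genotypes is set against Col-0, so the comparisons share 3 control libraries. In h2a.z-5 no member rose or fell by edgeR (0.525% and 0.385% of all genes), with 2 higher and 1 lower at an unadjusted p under 0.05 (4.43% and 5.27%) and none called by DESeq2 (0.944% and 0.924%) or with the block (1.72% and 2.06%). The log2 fold changes ran from -0.53 to 0.74 with a median of 0.02. In the libraries labelled hda6-1 no member rose and 1 fell (2.95% and 0.101% of all genes), and with the block none rose and 6 fell (4.12% and 0.722% of all genes). That member, AT5G24215, had 1.90, 1.48 and 1.77 CPM in the libraries labelled hda6-1, against 3.56, 4.21 and 3.23 CPM in Col-0, a log2 fold change of -1.002 ± 0.24 (adjusted p = 0.0234 by edgeR). Its groups did not overlap, but the call was lost in 5 of the 6 fits that left out 1 of these libraries, all but Col-0 replicate 3.

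Under the label hda6-1 h2a.z-5 no member rose and 2 fell (4.79% and 1.22% of all genes), and with the block none rose and 11 fell (8.92% and 5.46% of all genes). CYP706A5, a cytochrome P450, had 19.1, 19.0 and 18.6 CPM in them, against 30.8, 30.6 and 25.7 CPM in Col-0, a log2 fold change of -0.65 ± 0.14 (adjusted p = 0.00903 by edgeR). AT3G28270, whose values are given above, changed by -1.17 ± 0.30 (adjusted p = 0.0259 by edgeR). In both the groups did not overlap, and the call of AT3G28270 was lost in 5 of the 6 fits that left out 1 library, all but hda6-1 h2a.z-5 replicate 1. The members with further calls under the block included LSU1, UGT73B2 and CPR5, with block-adjusted p of 0.0056, 0.000469 and 0.0476. The members' median log2 fold changes against Col-0 were -0.07 under hda6-1 h2a.z-5 and -0.06 under hda6-1, against -0.01 and -0.02 over all genes.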

How the data were processed

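Raw read counts per gene, deposited by the authors in 1 table for the 18 genotype libraries and 1 for the 10 TSA and Mock libraries, were used as they stand. How RNA reads were aligned and counted is not given in the sources used here; per the submitters' processing notes the tools were fastp 0.23.4, Bowtie2, SAMtools 1.17, Picard 3.0.0, MACS2 2.2.6 and deepTools 3.5.2 on TAIR10, with no role, and the protocol in the labels describes ChIP. All 36632 identifiers matched TAIR10.1 from RefSeq, the source of names, products, coordinates and sequence.

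CPM is the count over the column total, scaled to 1000000. Tests used edgeR 4.0.16 in R 4.3.3: quasi-likelihood F test, two-sided, TMM, filterByExpr (minimum count 10, minimum total 15), Benjamini-Hochberg adjustment over all genes, called at an adjusted p under 0.05. The genotypes were fitted together (12 residual degrees of freedom), TSA and Mock apart (8). The fits were also run on simulated independent counts with a single fixed dispersion and no replicate effect. These data differ from that setting, and nothing is read from the simulation here. Alternatives were RLE, DESeq2 1.42.0, no filter, a replicate block, only the groups compared and leaving out each library; totals as library sizes and leaving out replicate 5 of TSA and Mock were added after seeing the data, as were the DESeq2 and blocked counts of NLR genes that are not members and of listed genes. Because the 2 hda9-1 comparisons and the members share the same values, no test of members is given there.

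Named members follow a rule: the 12 largest ratios, the 6 highest levels, the 5 largest non-overlapping called changes each way in TSA, called members of the other comparisons (3 each way), genes at the limits, neighbours, families, and list genes that were members or called. Those in the paragraphs on signalling, turnover and replicate 5 were named after their values were seen. The members, lists and families were chosen with earlier results of these data known. After removal of group means, genotype libraries with the same replicate number correlated at 0.142 to 0.647 (45 pairs, median 0.403). Those with different numbers correlated at -0.565 to 0.286 (90 pairs, median -0.240). In TSA and Mock the values were 0.101 to 0.497 (5 pairs, median 0.321) and -0.435 to 0.330 (20 pairs, median 0.033). Removing group means itself tends to push the values for different numbers down where those for the same number are positive. This effect is stronger with 3 libraries per group than with 5, so the genotypes and the TSA and Mock libraries are not compared. Libraries of the same number tended to vary together, with ranges that overlapped. The main fits leave this out, and the replicate block includes it. Counts carry no molecular identifiers, and log2 fold changes are edgeR's with the SE of the fit.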

Additional observations from a re-analysis of the deposited data

Results flagged for a closer look

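The outermost library stood apart from the other 4 of its group, by Dixon's criterion at the 95% level, in 14 of 74 groups of 5 examined over 37 members; chance gives about 1 in 20 groups. In 12 of the 14 the library was replicate 5, of TSA or of Mock. AT5G62280 had 47.7 CPM in TSA replicate 5 and 46.4 CPM in Mock replicate 5, TPS8 had 211 CPM and 303 CPM, and AT3G55240 had 5.76 CPM and 45.9 CPM, each the highest of its group. Also highest were CYP71B29 at 7.71 CPM in TSA replicate 5, and in Mock replicate 5 AT3G14700 at 2.74 CPM, AT4G08850 at 202 CPM and the NLR AT5G41740 at 52.8 CPM. Lowest in Mock replicate 5 were AT1G61300 at 3.299 CPM and AT1G07080 at 66.4 CPM. The others were AT3G28270 at 50.5 CPM in TSA replicate 3 and AT5G41740 at 21.9 CPM in TSA replicate 2, each the highest of its group.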

How the results depend on the processing

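With the rule at a ratio of at least 1.5 or 2, 93 or 18 genes met it; a minimum of 5 CPM gave 159 and TMM sizes 215. Leaving out 1 library gave 168 to 362 genes, the most without hda9-1 h2a.z-5 replicate 2 (168 of them members), the library that was the lowest of the 6 for 60 members. In TSA, column totals gave 7 members higher and 53 lower, leaving out replicate 5 of both groups 58 lower, and leaving out 1 library 8 to 19 higher (8 without TSA replicate 1) and 25 to 43 lower. Of the NLR genes, 56 were lower and 1 higher; leaving out 1 library gave 48 to 60 lower and 1 to 7 higher (7 without Mock replicate 5), DESeq2 and the replicate block 2 higher, and leaving out replicate 5 of both groups 7 higher. Members lower in the libraries labelled hda6-1 numbered 3 by DESeq2, 6 with the replicate block, 2 with only the groups compared and 0 to 1 with 1 library left out; in those labelled hda6-1 h2a.z-5 they numbered 6, 11, 1 and 1 to 2, and 1 with column totals. In hda9-1 h2a.z-5 against hda9-1, DESeq2 called 3 lower and the replicate block 2, and leaving out 1 library 0. The replicate block moved no other count of members called in the comparisons named here by over 1.5 times; its calls of other NLR genes and of the lists in the hda9-1 comparisons stand beside those results. Leaving out 1 library gave 0 members called in h2a.z-5 and in the interaction. Among 22 log2 fold changes followed under every setting, those of the uncalled AT5G38850 and AT2G14080 in TSA turned positive, at 0.040 and 0.16 without Mock replicate 5, and AT2G14080 at 0.057 without TSA replicate 4; leaving out 1 library gave -0.50 to 0.040 and -0.43 to 0.16. CYP706A5 had an adjusted p of 0.0506 by edgeR with only the groups compared. The ratios of 18 members named for ratio or level moved by less than 1 SD of the 6 hda9-1 libraries under every setting. Leaving out 1 of these 6 cannot move their mean by 1 such SD, so no stability is read from this. TPS8, whose SD is wide, was at 2.26 in place of 3.60 without hda9-1 h2a.z-5 replicate 3. The cause of these shifts was not tested.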
